A study of Homo sapiens with 8 samples.

Results

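The BCL2 family sets how readily a cell enters the mitochondrial pathway of apoptosis. The 10 best-known members were followed here: the pro-survival genes BCL2, BCL2L1, MCL1 and BCL2A1, the BH3-only genes BCL2L11, BBC3, PMAIP1 and BID, and the effectors BAX and BAK1. They were taken by symbol from the count table of Molm13 and by the same gene identifier from the table of THP1, and all 10 were found among the 57722 genes that both tables list.

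Pro-survival proteins hold the effectors in check on the outer mitochondrial membrane. BH3-only proteins sense stress and either occupy the groove of the pro-survival proteins or act on the effectors, which then permeabilize the membrane and release cytochrome c. Acute myeloid leukemia (AML) is known for its reliance on BCL2 and MCL1, and BCL2 is the target of the drug venetoclax.

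Both cell lines profiled by PolyA RNA-seq, Molm13 and THP1, derive from human AML with monocytic features and a rearranged MLL gene. The cells carried a control shRNA (shCtrl, genotype given as WT) or an shRNA against the arginine methyltransferase PRMT9 (shPRMT9, PRMT9 KD), and doxycycline was used for induction in all 4 groups, controls included. Each group held 2 libraries, 8 in all, with 18720950 to 27356870 counted reads each. The labels name neither clones nor separate cultures for the replicates, and shPRMT9-1 and shPRMT9-2 were taken to be replicates, although the study's hairpins also bear numbers. The p-values therefore measure only the spread between these libraries, which may be technical. The question was what PRMT9 KD does to the family in each line. PRMT9 itself had 332 and 289 reads in Molm13 shCtrl against 41 and 56 after KD, and 317 and 352 against 60 and 68 in THP1. The fall was -2.68 on the log2 scale in Molm13 (edgeR quasi-likelihood test, adjusted p = 1.2e-21) and -2.29 in THP1 (adjusted p = 3.5e-14).

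Library names of THP1 also carry the letters OCI, which other leukemia lines use. The 10 myeloid markers summed to 1634 and 1638 CPM (counts scaled to library size) in Molm13 shCtrl and to 2717 and 2693 CPM in THP1 shCtrl, while all 4 T cell and all 4 erythroid markers stayed below 1 CPM in every library. Of 6 B cell markers, 4 were below 1 CPM in all libraries. The B cell sum was 42.9 and 42.6 CPM in Molm13 shCtrl and 40.3 and 39.5 after KD, and 4.32 and 5.06 against 14.9 and 13.2 CPM in THP1, where PAX5 went from 64 and 86 to 298 and 276 reads (log2 fold change 2.03, edgeR adjusted p = 7.4e-13). After KD the myeloid sum was 2301 and 2323 CPM in Molm13 and 4146 and 3994 CPM in THP1. Of single myeloid markers, 9 of 10 tested rose and 1 fell in Molm13, and 6 of 9 rose and 3 fell in THP1 (edgeR, adjusted p below 0.05). Of all tested genes, 33.4% rose and 33.5% fell in Molm13, and 19% and 18.6% in THP1. With KD, the sum of 11 monocyte maturation markers moved from 125 and 129 to 289 and 289 CPM in Molm13 and from 137 and 134 to 326 and 329 CPM in THP1. Singly, 6 of 7 tested maturation markers rose and 1 fell in Molm13, and 9 of 10 rose and 0 fell in THP1 (edgeR, adjusted p below 0.05). The myeloid and maturation lists share ITGAM, CSF1R and CD68, so their sums are not separate observations. The part of these marker sums in the changes given below was not tested. In bulk RNA, fewer cells of a kind and less RNA per cell cannot be told apart.

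The BH3 motif gives the BH3-only genes their name. It was searched for as leucine, any 3 residues, glycine or alanine, and aspartate. The search used the coding sequence of the longest principal transcript of GENCODE release 29. Exactly 1 match was found in 9 of the 10 genes, against at least 1 match in 11.4% of 7675 other coding genes that are no longer than the longest member. The matching coding bases are shown because they are what the BH3-only genes, the effectors and most pro-survival genes have in common, with the codons of leucine, of glycine or alanine, and of aspartate in capitals.
BCL2: CTCcgccaggccGGCGAC
BCL2L1: CTGagggaggcaGGCGAC
MCL1: TTAcgacgggttGGGGAT
BCL2L11: TTGcggcgtattGGAGAC
BBC3: CTGcggcggatgGCGGAC
PMAIP1: CTCaggagatttGGAGAC
BID: CTCgcccaggtcGGGGAC
BAX: CTCaagcgcatcGGGGAC
BAK1: CTCgccatcatcGGGGAC

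The match lay at codon 97 of 239 in BCL2, in exon 1 of 2 (GRCh38, chr18:63318361-63318378, minus strand). In PMAIP1, the shortest member with 54 codons, it lay at codon 29 in exon 2 of 2 (chr18:59902673-59902690, plus strand). In BAK1 it lay at codon 78 of 211 in exon 4 of 6 (chr6:33575399-33575416, minus strand). In BBC3 it was the only match with alanine in place of glycine, at codon 141 of 193 in exon 3 of 4 (chr19:47226591-47226608, minus strand). BCL2A1, with 175 codons, held no match to these letters.

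Transcript levels are given as RPKM (reads scaled to exon length and to library size), with TMM normalization over all 8 libraries, so that genes can be compared with each other. MCL1, whose short-lived protein neutralizes BCL2L11 and PMAIP1, was the most abundant member in every library. Its level was 87.0 and 87.0 RPKM in Molm13 shCtrl and 69.9 and 70.3 RPKM in THP1 shCtrl. BCL2A1 had the lowest level in both shCtrl groups, at 1.079 and 0.703 RPKM in Molm13 and 0.0715 and 0.199 RPKM in THP1.

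**Figure D1:**
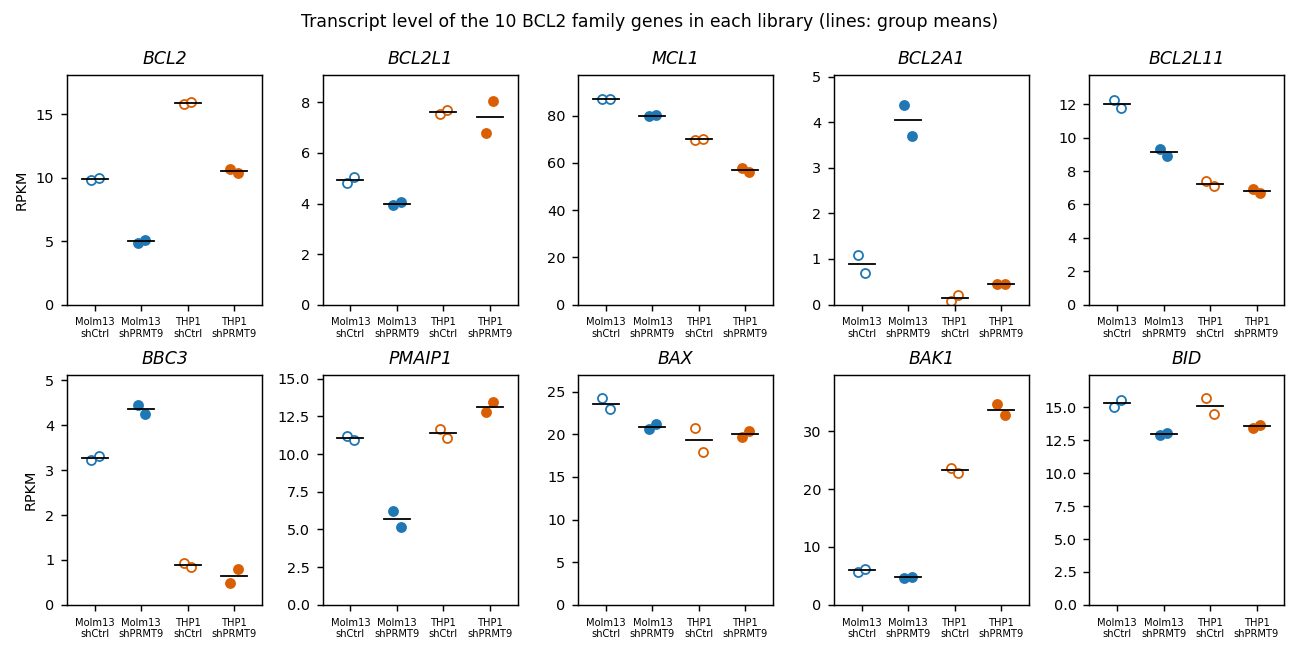
Each panel plots 1 of the 10 genes in RPKM (vertical axes start at 0 and differ in scale) in the 4 groups, with 1 point per library and a line at the group mean of 2. BCL2 was lower after KD in both lines, PMAIP1 was lower in Molm13 (5.72 RPKM against 11.1) and not in THP1 (13.1 against 11.4), and BAK1 was highest in THP1 after KD (33.7 RPKM).

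Before KD, the lines differed in 6 of the 10 members (edgeR, all 8 libraries in 1 fit, adjusted p below 0.05 and over 1.5-fold). BCL2, BCL2L1 and BAK1 were higher in THP1, and BCL2A1, BCL2L11 and BBC3 were higher in Molm13. Over all 19288 genes tested, 28.4% were higher in THP1 and 31.1% higher in Molm13 by the same rule, so 3 of 10 members in each direction is close to the background. The lines come in separate tables with 1 line each, so line and handling cannot be told apart.

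The widest gaps in level were in BAK1, BBC3 and BCL2A1. BAK1, an effector that sits in the mitochondrial membrane, had 5.71 and 6.25 RPKM in Molm13 shCtrl and 23.7 and 22.9 RPKM in THP1 shCtrl, a 3.89-fold difference (log2 difference 1.96 ± 0.07 SE, adjusted p = 1.9e-44). BBC3, which encodes PUMA, had 3.23 and 3.31 RPKM in Molm13 and 0.942 and 0.853 RPKM in THP1, and was 3.64-fold higher in Molm13 (adjusted p = 7.1e-22). BCL2A1 was 6.30-fold higher in Molm13 (adjusted p = 1.5e-06), but rested on 24 and 15 reads in Molm13 and 2 and 6 reads in THP1.

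Reads of BAK1 can also fall on its pseudogene BAK1P1, which had 32 to 47 reads in the Molm13 libraries and 0 to 2 in the THP1 libraries. With the reads of BAK1P1 added, BAK1 was 3.39-fold higher in THP1 shCtrl. The same split was seen in the pseudogenes BNIP3P1 (363 to 773 reads in Molm13, 0 to 1 in THP1) and CYCSP55 (61 to 194, 0 to 4). BCL2L12P1 also showed it (27 to 49, 0 to 3). Whether the reads of the 2 lines were aligned and counted alike was not tested, so levels compared between the lines may carry such a difference.

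With PRMT9 KD, the family moved in most members in Molm13, downwards in the greater number. All 10 were changed (edgeR quasi-likelihood test with Benjamini-Hochberg adjustment, here and below, adjusted p below 0.05): BCL2A1 and BBC3 rose, and the other 8 fell. With DESeq2, BCL2L1, BAX and BAK1 did not pass. In the same fit 33.4% of 16446 tested genes rose and 33.5% fell. DEGs, which also needed a fold change beyond 1.5 and over 1 RPKM in at least 1 library, were BCL2A1 (up) and BCL2 and PMAIP1 (down), against 11.4% of tested genes up and 11.3% down. The median log2 fold change of the 10 was -0.26, against 0.00047 over all tested genes.

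In THP1, 6 of the 10 were changed. BAK1, PMAIP1 and BCL2A1 rose, and BCL2, MCL1 and BID fell, where 19% of 16294 tested genes rose and 18.6% fell. BCL2 was the only DEG among them and it fell, against 3.83% of tested genes up and 2.39% down. The median log2 fold change of the 10 was -0.07, against -0.00063 over all tested genes. BBC3, BCL2L1, BCL2L11 and BAX did not pass the test. With DESeq2, PMAIP1 and BID did not pass either, and BCL2A1 was given no adjusted p.

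**Figure D2:**
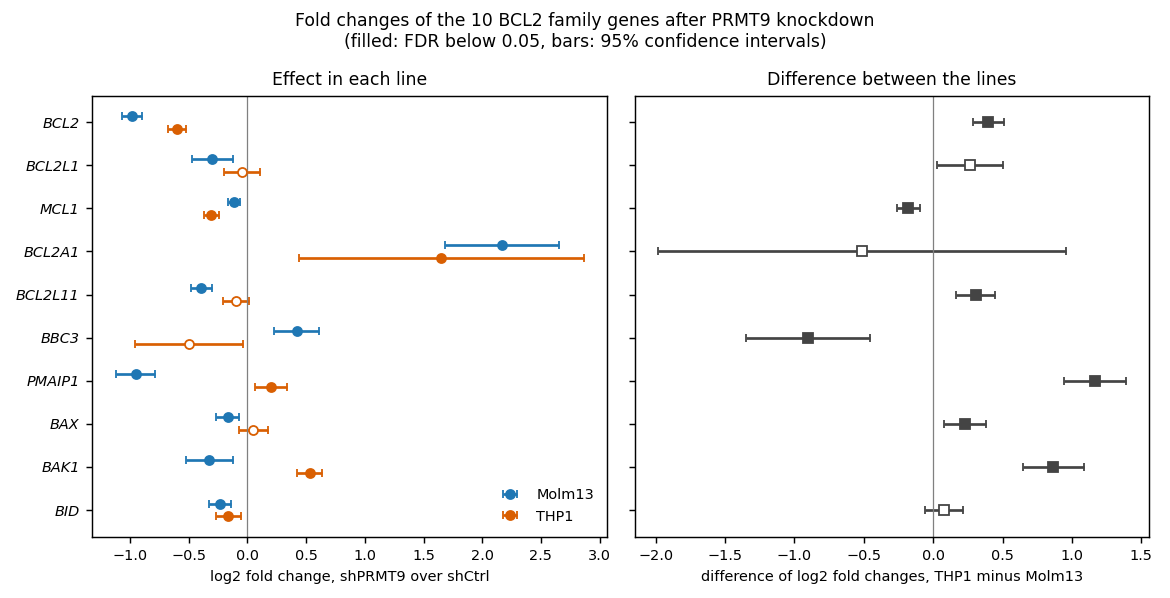
Left, log2 fold change of shPRMT9 over shCtrl for each gene in Molm13 (blue) and THP1 (orange), and right, the THP1 value minus the Molm13 value from the fit of 8 libraries; bars are 95% confidence intervals and filled symbols have an adjusted p below 0.05. PMAIP1 and BAK1 fell in Molm13 and rose in THP1, whereas BCL2 lies left of 0 in both lines.

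BCL2, the founding pro-survival member (gene at chr18:63123346-63320128, minus strand), was the only one of the 10 that was a DEG in both lines, and it fell in each. Molm13 had 2364 and 2305 reads in shCtrl (9.84 and 9.996 RPKM) and 1085 and 1282 after KD (4.88 and 5.11 RPKM). THP1 had 4788 and 5185 reads in shCtrl (15.8 and 15.9 RPKM) and 3149 and 3026 after KD (10.7 and 10.4 RPKM). The groups did not overlap in either line, and the level in THP1 after KD remained above that in Molm13 shCtrl.

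The fall of BCL2 was -0.98 ± 0.04 (SE) on the log2 scale in Molm13 (95% confidence interval -1.06 to -0.90, edgeR adjusted p = 2.2e-24) and -0.60 ± 0.04 in THP1 (-0.67 to -0.52, adjusted p = 1.3e-13). In THP1 this is 1.51-fold, just beyond the 1.5-fold limit for DEGs. Without the second THP1 shPRMT9 library it was -0.58, and no member was then a DEG in that line, although its adjusted p stayed below 0.05. The fall was larger in Molm13 (difference 0.40 ± 0.06, adjusted p = 2.4e-09).

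The promoter of BCL2 is shown because it is the member that was a DEG in the same direction in both lines. It covers 250 bases before to 50 bases after the RefSeq start (GRCh38.p14, chr18:63319720-63320019, minus strand), and no letters are capitalized since none of the 4 motifs searched on both strands was found: GGGNNTTCC (NF-kB type), GAAANNGAA (IRF type), TTCNNNGAA (STAT type) and, for the TATA box, the letters TATAAA.
BCL2 promoter: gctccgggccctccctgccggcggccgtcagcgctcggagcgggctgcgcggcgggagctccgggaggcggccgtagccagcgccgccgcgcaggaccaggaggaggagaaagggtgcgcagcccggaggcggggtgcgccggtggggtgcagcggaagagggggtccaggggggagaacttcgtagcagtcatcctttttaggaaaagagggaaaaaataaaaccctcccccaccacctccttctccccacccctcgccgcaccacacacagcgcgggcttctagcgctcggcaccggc

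BCL2A1, a pro-survival gene that NF-kB factors are known to switch on, went the other way (gene at chr15:79960889-79971446, minus strand). Molm13 had 24 and 15 reads in shCtrl and 90 and 86 after KD, and its level moved from 1.079 and 0.703 to 4.37 and 3.71 RPKM. The log2 fold change was 2.17 ± 0.24 (95% confidence interval 1.68 to 2.66, adjusted p = 9.9e-11), the largest of the 10. THP1 had 2 and 6 reads in shCtrl and 12 and 12 after KD, with a fitted log2 fold change of 1.65 ± 0.59 (0.44 to 2.86, adjusted p = 0.028).

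The depth in THP1 limits this value. All 4 THP1 libraries were below 0.5 RPKM, and when any 1 library was left out the log2 fold change lay between 1.13 and 2.54 and the adjusted p between 0.066 and 0.34. The effect on BCL2A1 was not shown to differ between the lines (difference -0.51, 95% confidence interval -1.98 to 0.96, adjusted p = 0.65).

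The promoter of BCL2A1 was added after its values were seen, as the member with the largest change (GRCh38.p14, chr15:79971147-79971446, minus strand). Matches to the motifs are in capitals. From the 5′ end they are 1 of the STAT type, 1 of the IRF type on the opposite strand and 1 TATA box, which start at positions -168, -132 and -70 relative to the RefSeq start, and no NF-kB type match was found.
BCL2A1 promoter: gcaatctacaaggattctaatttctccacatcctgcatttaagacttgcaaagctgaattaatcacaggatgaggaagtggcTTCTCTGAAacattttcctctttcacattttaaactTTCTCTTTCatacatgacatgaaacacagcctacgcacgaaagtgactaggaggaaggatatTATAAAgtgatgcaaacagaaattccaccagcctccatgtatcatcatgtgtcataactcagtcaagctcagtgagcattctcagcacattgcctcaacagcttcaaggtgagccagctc

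The same motifs were searched in the 14 promoter windows of the table that belong to 9 of the members (MCL1 has none there). An IRF type match was found in 2 of the 9 genes, BCL2A1 and BBC3, a STAT type match in BCL2A1, a TATA box in BCL2A1 and BCL2L1, and an NF-kB type match in BID. Of all 35116 promoters in the table, 8.11% held an IRF type match, 7.66% a STAT type match, 11.5% a TATA box and 6.58% an NF-kB type match. A match or its lack describes these letters alone.

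MCL1 fell slightly in Molm13 and more in THP1. It had 7766 and 7457 reads in Molm13 shCtrl and 6595 and 7466 after KD, or 87.0 and 87.0 against 79.8 and 80.2 RPKM. THP1 had 7848 and 8500 reads against 6312 and 6067, or 69.9 and 70.3 against 57.7 and 56.2 RPKM. The groups were apart in RPKM in both lines.

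MCL1 gave a log2 fold change of -0.11 ± 0.03 in Molm13 (adjusted p = 0.00012) and -0.31 ± 0.03 in THP1 (adjusted p = 9e-09). The fall was larger in THP1 (difference -0.18, adjusted p = 0.00014), so that MCL1 and BCL2 differed between the lines in opposite directions.

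BCL2L1, which encodes BCL-xL and by splicing also the pro-apoptotic BCL-xS, had 325 and 329 reads in Molm13 shCtrl and 246 and 286 after KD. THP1 had 643 and 707 reads against 564 and 661. Its log2 fold change was -0.30 ± 0.09 in Molm13 (adjusted p = 0.0026, and 0.083 with DESeq2) and -0.04 in THP1 (95% confidence interval -0.20 to 0.11, adjusted p = 0.69), and the difference between the lines did not pass the test (0.27, adjusted p = 0.067). Counts per gene do not separate the isoforms of BCL2L1 or of MCL1.

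PMAIP1, which encodes NOXA, a BH3-only protein selective for MCL1 and BCL2A1, showed the widest difference between the lines. Molm13 had 512 and 478 reads in shCtrl and 264 and 247 after KD, or 11.2 and 10.9 against 6.25 and 5.19 RPKM. THP1 had 671 and 684 reads against 717 and 743, or 11.7 and 11.1 against 12.8 and 13.5 RPKM. The shCtrl groups of the lines overlapped in level, and the KD groups lay on opposite sides of them.

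The log2 fold change of PMAIP1 was -0.95 ± 0.08 in Molm13 (95% confidence interval -1.12 to -0.78, adjusted p = 1.3e-13) and 0.20 ± 0.07 in THP1 (0.06 to 0.34, adjusted p = 0.019). The rise in THP1 did not pass with DESeq2 (adjusted p = 0.13), without the filter (0.061), without the second shCtrl library (0.2) or without the second shPRMT9 library (0.12). The difference between the lines was 1.17 ± 0.11 (adjusted p = 7.2e-16), and PMAIP1 was the only member for which it exceeded 2-fold.

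BBC3 encodes PUMA, which binds all pro-survival members. Molm13 had 210 and 206 reads in shCtrl and 268 and 288 after KD, a rise of 0.42 ± 0.10 on the log2 scale (adjusted p = 0.00018). THP1 had 77 and 75 reads against 38 and 63, and the log2 fold change of -0.49 did not pass the test (95% confidence interval -0.95 to -0.03, adjusted p = 0.086). It depended on single KD libraries: it was -0.92 without the second shPRMT9 library (adjusted p = 0.0049) and -0.17 without the first (adjusted p = 0.66). The effect was lower in THP1 than in Molm13 (difference -0.90 ± 0.22, adjusted p = 0.00045).

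BCL2L11 encodes BIM, an activator of the effectors. Molm13 had 1666 and 1535 reads in shCtrl and 1174 and 1264 after KD, a fall of -0.39 ± 0.05 on the log2 scale (adjusted p = 3.1e-10). THP1 had 1263 and 1312 reads against 1151 and 1103, with -0.10 ± 0.05 (95% confidence interval -0.21 to 0.01, adjusted p = 0.17). The effect differed between the lines (0.31 ± 0.07, adjusted p = 0.00018).

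BID, which caspase-8 cleaves and which so links the death receptors to mitochondria, fell in both lines. Molm13 had 1367 and 1356 reads in shCtrl and 1083 and 1240 after KD, and THP1 had 1798 and 1785 against 1497 and 1504. The log2 fold change was -0.23 ± 0.05 in Molm13 (adjusted p = 3.1e-05) and -0.16 ± 0.05 in THP1 (adjusted p = 0.012, 0.072 with DESeq2 and 0.27 without the first shCtrl library). No difference between the lines was detected (0.08, 95% confidence interval -0.06 to 0.22, adjusted p = 0.39).

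Of the 2 effectors, BAK1 fell in Molm13 and rose in THP1. Molm13 had 258 and 271 reads in shCtrl and 197 and 226 after KD, or 5.71 and 6.25 against 4.71 and 4.79 RPKM. THP1 had 1345 and 1398 reads against 1918 and 1791, or 23.7 and 22.9 against 34.6 and 32.8 RPKM. Every THP1 library was above every Molm13 library.

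BAK1 gave a log2 fold change of -0.32 ± 0.10 in Molm13 (adjusted p = 0.0036, 0.095 with DESeq2 and 0.054 without the second shCtrl library) and 0.53 ± 0.05 in THP1 (adjusted p = 1.2e-09). The rise in THP1 was 1.44-fold and just under the limit for DEGs. The difference between the lines was 0.86 ± 0.11 (adjusted p = 9.2e-11), and 0.81 with the reads of BAK1P1 added.

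BAX, the effector that is mainly cytosolic until activation, moved little. Molm13 had 1278 and 1166 reads in shCtrl and 1007 and 1169 after KD, or 24.2 and 23.0 against 20.6 and 21.2 RPKM. THP1 had 1376 and 1282 reads against 1278 and 1303, or 20.7 and 17.9 against 19.7 and 20.4 RPKM. The groups were apart in RPKM in Molm13 and overlapped in THP1.

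BAX gave a log2 fold change of -0.17 ± 0.05 in Molm13 (adjusted p = 0.0024, and 0.061 with DESeq2) and 0.05 in THP1 (95% confidence interval -0.07 to 0.17, adjusted p = 0.56). The difference between the lines was 0.23 ± 0.08 (adjusted p = 0.0093). It was not among the members that differed with DESeq2.

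Tested directly, the effect of KD differed between the lines in 7 of the 10 members. In BCL2, BCL2L11, PMAIP1, BAX and BAK1 the log2 fold change was higher in THP1, and in MCL1 and BBC3 it was higher in Molm13. Over all 19288 genes, 22.8% were higher in THP1 and 19.4% higher in Molm13.

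The order of levels over the 4 groups also differed between members. For BCL2, MCL1, BCL2A1, BCL2L11, BBC3 and BAK1 no neighboring groups overlapped, with BCL2 highest in THP1 shCtrl and MCL1 and BCL2L11 highest in Molm13 shCtrl. BCL2L1 overlapped between shCtrl and KD in THP1, BAX between KD and shCtrl in THP1 and between Molm13 KD and THP1 shCtrl, and PMAIP1 and BID between the shCtrl groups of the lines. BID had the narrowest range relative to its level, from 13.0 ± 0.1 RPKM (SD, n = 2) in Molm13 after KD to 15.3 ± 0.4 RPKM in Molm13 shCtrl.

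The members were next summed by class to describe how transcripts are shared out. Other genes of a class, such as the BH3-only BIK and BMF and the pro-survival BCL2L2, lie outside these sums. Of the summed pro-survival level, MCL1 made up 84.7% in Molm13 shCtrl, 86.0% after KD, 74.8% in THP1 shCtrl and 75.5% after KD. The share of BCL2 was 9.65% ± 0.10 (SD, n = 2) in Molm13 shCtrl and 5.37% ± 0.18 after KD, and 16.9% ± 0.03 and 14.0% ± 0.20 in THP1. The share of BCL2A1 was 0.867% and 4.34% in Molm13, and 0.144% and 0.588% in THP1. Without division by exon length (CPM), the share of BCL2 was 22.7% and 13.8% in Molm13 and 36.0% and 31.2% in THP1, that of MCL1 73.9% and 82.1% in Molm13 and 59.1% and 62.5% in THP1, and that of BCL2A1 0.189% and 1.03% in Molm13 and 0.0284% and 0.121% in THP1.

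Within the summed level of the BH3-only members, the share of PMAIP1 was 26.6% ± 0.4 in Molm13 shCtrl and 17.7% ± 1.8 after KD, and 32.8% ± 0.2 and 38.5% ± 0.5 in THP1. The share of BBC3 was 7.85% and 13.5% in Molm13, and 2.59% and 1.87% in THP1. These are not shares of all BH3-only transcripts. BIK, which is not in the sum, had 40.7 and 41.5 RPKM in Molm13 shCtrl, above every BH3-only member there. Of the effectors, BAK1 made up 20.2% and 18.5% in Molm13, and 54.7% and 62.7% in THP1. The leading effector by RPKM was thus BAX in Molm13 and BAK1 in THP1. From CPM, THP1 shCtrl had 53.6 and 46.4 for BAX and 52.4 and 50.6 for BAK1, so their order differed between the replicates. After KD, BAK1 led in THP1 by CPM as well (76.6 and 72.5 against 51.0 and 52.7).

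**Figure D3:**
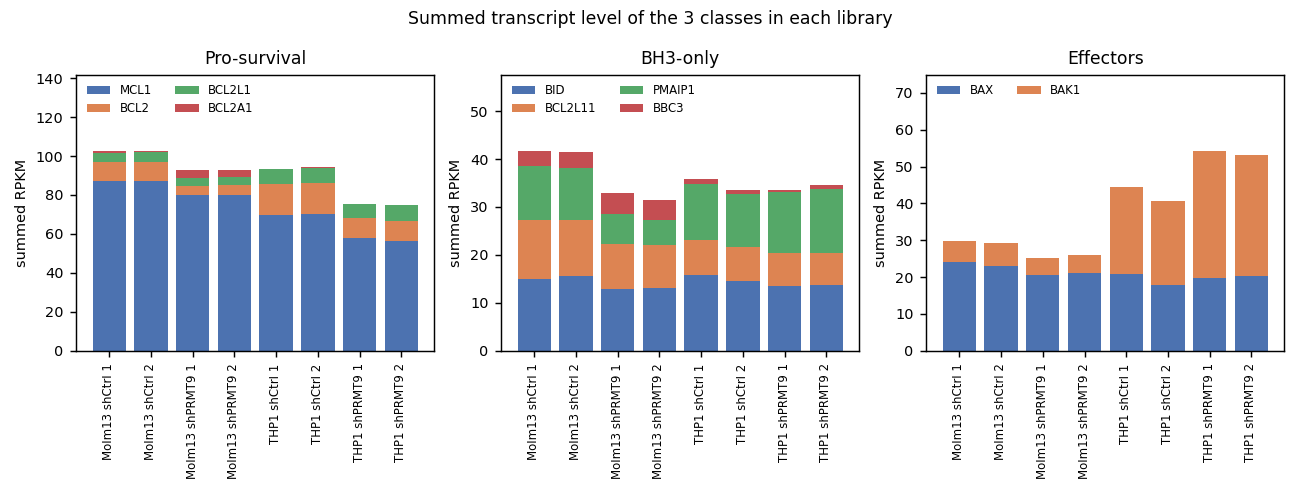
Stacked bars give the summed RPKM of the pro-survival, BH3-only and effector members in each of the 8 libraries, with 1 color per gene. MCL1 forms most of the pro-survival bars, and BAK1 forms most of the effector bars in THP1 alone.

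The summed pro-survival level was 103 RPKM in Molm13 shCtrl and 93.0 after KD, and 93.8 and 75.3 in THP1. The summed pro-apoptotic level (BH3-only and effectors) was 71.2 and 57.8 RPKM in Molm13, and 77.2 and 87.9 in THP1. The ratio of the sums was 1.44 ± 0.01 in Molm13 shCtrl and 1.61 ± 0.02 after KD, and 1.22 ± 0.07 and 0.857 ± 0.003 in THP1 (SD, n = 2). Among these members, the libraries of shCtrl and KD did not overlap in either line, and the ratio moved in opposite directions. However, 2 against 2 libraries cannot give an exact permutation p below 0.333. BIK, outside the sums, had mean levels of 41.1 and 39.7 RPKM in Molm13 (shCtrl and KD), and 10.5 and 4.20 in THP1. BMF had 3.46 and 9.62 in Molm13, and 0.948 and 1.04 in THP1. BCL2L2 had 4.68 and 4.65 in Molm13, and 7.94 and 8.16 in THP1. The ratio with such genes added was not computed, and its direction may differ from that of the members alone. From CPM, the ratio of the members was 2.00 and 2.03 in Molm13, and 2.12 and 1.51 in THP1. The order of the control lines thus turned and the gap in Molm13 was smaller. The ratio of MCL1 to its partner PMAIP1 was 7.87 ± 0.16 in Molm13 shCtrl and 14.1 ± 1.9 after KD, and 6.17 ± 0.26 and 4.34 ± 0.23 in THP1.

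Of 13 other BCL2 family genes, 9 had enough reads in each line. In Molm13, 5 rose and 2 fell, with a median log2 fold change of 0.24, and in THP1, 1 rose and 4 fell, with a median of 0.03. The shares over all tested genes, which also stand behind the counts of the lists that follow, were 33.4% up and 33.5% down in Molm13 and 19% up and 18.6% down in THP1. BMF, a BH3-only gene tied to the cytoskeleton, went from 345 and 408 to 1025 and 1077 reads in Molm13 (log2 fold change 1.48, adjusted p = 8.6e-23) and had 138 and 137 against 135 and 148 in THP1 (0.14, adjusted p = 0.48). BIK, a BH3-only gene of the endoplasmic reticulum, did not pass in Molm13 (-0.05, adjusted p = 0.51) and went from 273 and 260 to 97 and 102 reads in THP1 (-1.33, adjusted p = 1.9e-09).

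BNIP3 and BNIP3L, BH3-like genes of mitophagy that respond to hypoxia, rose in Molm13 by 0.66 and 0.99 on the log2 scale and changed by -0.78 and -0.34 in THP1, all with an adjusted p of 0.00025 or less. Their difference between the lines was -1.43 and -1.32, and it was tested for each (adjusted p = 1e-25 and 1.3e-27). The pseudogene BNIP3P1 had 363 to 773 reads in Molm13 and at most 1 in THP1, and with them added BNIP3 changed by 0.75 in Molm13 and by -0.78 in THP1. BAD, a BH3-only gene that growth factor signaling keeps inactive, rose in Molm13 (0.44, adjusted p = 0.014) and fell in THP1 (-0.34, adjusted p = 0.002).

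BCL2L13 was the only one of these genes that rose in both lines (0.24 and 0.20, adjusted p = 4.3e-07 and 2e-04). HRK, a BH3-only gene, fell in Molm13 from 91 and 88 to 31 and 34 reads (-1.46, adjusted p = 3.3e-08), below 1 RPKM in all libraries. BCL2L12 fell in Molm13 (-0.21, adjusted p = 0.023) and gave 0.03 in THP1 (adjusted p = 0.71). The pro-survival BCL2L2 did not pass in Molm13 (-0.0032, adjusted p = 0.98) or THP1 (0.03, adjusted p = 0.72), nor did BCL2L15 in THP1 (0.38, adjusted p = 0.31).

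**Figure D4:**
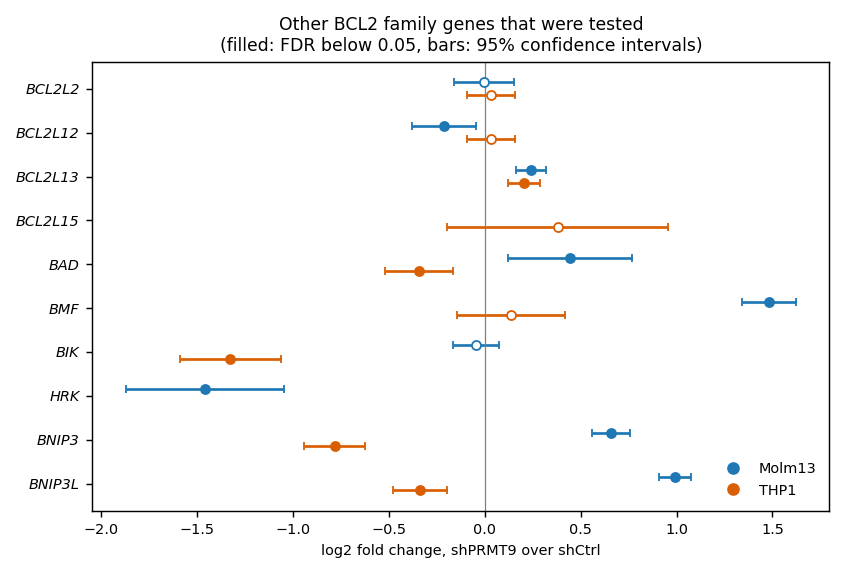
The log2 fold change of shPRMT9 over shCtrl is plotted for each other BCL2 family gene that was tested, in Molm13 (blue) and THP1 (orange), with 95% confidence intervals and filled symbols for an adjusted p below 0.05. BAD, BNIP3 and BNIP3L rose in Molm13 and fell in THP1, and BCL2L15 and HRK were each tested in 1 line.

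Downstream of the mitochondria, 16 of 17 apoptosome and caspase genes were changed in Molm13 (6 up, 10 down, median -0.18) and 9 in THP1 (2 up, 7 down, median -0.09), against all tested genes with 33.4% up and 33.5% down in Molm13 and 19% and 18.6% in THP1. CYCS, which encodes the cytochrome c that the effectors release, fell in Molm13 from 49.2 and 47.9 to 21.7 and 22.0 RPKM (-1.14, adjusted p = 1.9e-30). Its change in THP1 was -0.09 (adjusted p = 0.037). The pseudogene CYCSP55 took 61 to 194 reads in Molm13, and adding them left -1.15.

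BIRC5, which encodes survivin, fell in Molm13 (-1.03, adjusted p = 1.2e-23) and in THP1 (-0.37, adjusted p = 1.8e-09). CASP6 rose in Molm13 (0.79, adjusted p = 8.2e-09) and fell in THP1 (-0.33, adjusted p = 0.011). The initiator CASP9 rose in Molm13 (0.92, adjusted p = 1.7e-08) and gave -0.13 in THP1 (adjusted p = 0.38). BIRC3, an inhibitor of apoptosis and NF-kB target, was the only DEG of this list in THP1, with 46 and 38 reads in shCtrl and 258 and 214 after KD (2.58, adjusted p = 4.6e-13). It also rose in Molm13, from 5 and 3 to 73 and 94 reads (4.34, adjusted p = 3.1e-15), but was below 1 RPKM there.

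The death receptor genes rose wherever they passed the test. In Molm13, 10 of 13 tested rose (median 0.45), and in THP1, 9 of 12 (median 0.33), where 33.4% and 19% of all tested genes rose. By edgeR, 0 fell in either line, also at an unadjusted p below 0.05. TNFSF10, the ligand TRAIL, was a DEG in both lines. It went from 194 and 191 to 421 and 485 reads in Molm13 (1.23, adjusted p = 9.5e-17) and from 652 and 704 to 1143 and 1164 in THP1 (0.86, adjusted p = 2.5e-12). CASP10 (1.06, adjusted p = 4.5e-17) and the decoy receptor TNFRSF10D (0.83, adjusted p = 2.9e-21) were DEGs in Molm13. In THP1, CASP10 rose under the fold limit (0.48, adjusted p = 5.7e-05) and TNFRSF10D gave -0.08 (adjusted p = 0.53).

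Of 13 mitochondrial partners of the family, 2 rose and 6 fell in Molm13, where MTCH2, the mitochondrial receptor of BID, fell by 0.90 on the log2 scale (adjusted p = 4e-23) and MFN2, a fusion GTPase, fell by 0.61 (adjusted p = 5e-20). MFN2 was under the fold limit without the second Molm13 shCtrl library or the second Molm13 shPRMT9 library, which left MTCH2 as the only DEG. In THP1, 4 rose and 2 fell, with 0 DEGs by edgeR and by DESeq2 (5 up and 2 down at an unadjusted p below 0.05). Of 14 genes that act on the turnover of MCL1 and BIM, 2 rose and 11 fell in Molm13, with CDC20, which encodes a mitotic ubiquitin ligase activator, the only DEG (-1.40, adjusted p = 3.5e-27). In THP1, 4 rose and 6 fell, with 0 DEGs by edgeR and by DESeq2 (5 up and 7 down at an unadjusted p below 0.05).

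Of 18 transcription factors known to act on family genes, 11 rose and 6 fell in Molm13 (median 0.18) and 10 rose and 4 fell in THP1 (median 0.38). NFKB2 and RELB, the NF-kB subunits of the noncanonical pathway, rose in both lines. NFKB2 changed by 2.89 in Molm13 (adjusted p = 1.3e-30) and 2.04 in THP1 (adjusted p = 1.6e-18), and RELB by 2.43 (adjusted p = 1.5e-18) and 1.51 (adjusted p = 9.6e-14). STAT5A rose in both lines (0.82 and 0.71, adjusted p = 5.9e-15 and 8.4e-05), and TP73 fell in both (-1.03 and -1.0, adjusted p = 3.6e-16 and 2.1e-06).

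DDIT3, which encodes the stress factor CHOP, rose in Molm13 (1.04, adjusted p = 4.3e-16), and E2F1 (-1.40, adjusted p = 5.5e-21) and FOXO1 (-0.70, adjusted p = 1.6e-11) fell there. All 3 changed in the same direction in THP1, under the fold limit, by 0.42, -0.25 and -0.43 (adjusted p = 2e-04, 4.7e-05 and 0.0012).

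For the 3 members that were DEGs in at least 1 line, the 2 coding genes with the nearest pattern over the 8 libraries were found among 10271 genes, by the Euclidean distance of log2 CPM after centring each gene. They were FMR1 (0.217) and OTUD4 (0.221) for BCL2, B3GLCT (0.132) and DPH2 (0.172) for PMAIP1, and BTG2 (0.845) and TNFSF13B (0.927) for BCL2A1. The libraries fall into 4 groups, so the distance mainly reflects the 4 group levels. BCL2A1 had no neighbor as close as those of BCL2 and PMAIP1.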

How the data were processed

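Bulk polyA RNA-seq was used, with 2 libraries for each of shCtrl and shPRMT9 in Molm13 and in THP1. The submitters' processing notes name hg38, TopHat2 2.0.8, HTSeq 0.11.2 and edgeR 3.30.3. The authors deposited raw counts of reads per gene in a table for each line, and the exon length of each gene in the table of Molm13. The strand setting of the counting and the treatment of reads that map to several places are not given in the sources used here. Totals ranged from 18720950 to 27356870 reads, and all libraries were kept. Replicates differed by more than sampling noise (chi-square per gene 1.32 to 2.06). The common coefficient of variation between replicates, from edgeR, was 0.020 in Molm13 and 0.025 in THP1. Whether the replicates were separate cultures cannot be told from these values.

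From the counts onward, R 4.3.3 with edgeR 4.0.16 was used, with filterByExpr, TMM, the quasi-likelihood test and Benjamini-Hochberg adjustment over all tested genes. Each line was fitted alone, and the 8 libraries were fitted together for the difference between the lines and for the control lines. DEGs needed an adjusted p below 0.05, a fold change above 1.5 or below its inverse, and over 1 RPKM in at least 1 library, as in the study's methods, whose upper fold limit was read as above 1.5. The SE was obtained from the log2 fold change and its F statistic. RPKM and CPM use TMM over 8 libraries and the Molm13 exon lengths. Alternatives used DESeq2 1.42.0, limma 3.58.1, other normalizations, no filter, a replicate block, other limits and leaving out each library, and the adding of pseudogene reads was chosen after seeing the data. The tests were tried on simulated counts.

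Named genes are the 10 members, PRMT9, every other tested family gene, transcription factors that were DEGs, of each other list up to 3 DEGs per direction with the largest change, no overlap and a mean of at least 20 counts, and the 2 nearest genes of each member that was a DEG. The pseudogenes were named outside this rule, after their values were seen, and some genes that the rule names are not reported here. The members and all lists were chosen with earlier results of these data known. Coordinates of the members in the deposited table equal those of GENCODE release 29 on GRCh38. Promoters are from RefSeq, where 9 of 10 members matched. Proteins were to be searched for the BH3 motif, and the coding sequences of GENCODE were translated in their place. The overlapping genes of the members had at most 32 reads in any library.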

Additional observations from a re-analysis of the deposited data

Results flagged for a closer look

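The effect of PRMT9 KD differed between the lines, by the test of the difference itself, in 7 members. The difference of log2 fold changes (THP1 minus Molm13) was 0.40 for BCL2, -0.18 for MCL1, 0.31 for BCL2L11, -0.90 for BBC3, 1.17 for PMAIP1, 0.23 for BAX and 0.86 for BAK1. By edgeR within each line, PMAIP1 and BAK1 fell in Molm13 and rose in THP1. With DESeq2, the rise of PMAIP1 in THP1 (adjusted p = 0.13) and the fall of BAK1 in Molm13 (adjusted p = 0.095) did not pass. BAX was no longer called with DESeq2, with upper quartile normalization and in 5 of the 8 fits that left out 1 library. The lines come from separate tables, so line and handling cannot be told apart.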

How the results depend on the processing

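The members that were DEGs (BCL2, BCL2A1 and PMAIP1 in Molm13, BCL2 in THP1) were the same genes under every normalization, without the filter, with DESeq2, with limma-voom, in the common fit of 8 libraries and with pseudogene reads added. With a fold change above 2 there was 1 in Molm13 and 0 in THP1, and with the adjusted p alone there were 10 and 6. By the adjusted p alone, 33.4% of all tested genes rose and 33.5% fell in Molm13, and 19% and 18.6% in THP1. The members that differed in their response fell from 7 to 1 with a 2-fold limit, and those that differed between the control lines from 6 to 3. Shares over all tested genes were not computed at the 2-fold limit, so these counts cannot be set against other genes. From CPM in place of RPKM, the ratio of pro-survival to pro-apoptotic sums was 2.00 in Molm13 shCtrl, 2.03 after KD, 2.12 in THP1 shCtrl and 1.51 after KD, which turned the order of the control lines and narrowed the gap in Molm13.

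Leaving out 1 library gave 3 DEGs among the members in Molm13 each time and 0 to 1 in THP1, 6 to 8 members that differed in their response, and 1 to 2 DEGs among the mitochondrial partners in Molm13, 0 to 1 of these in THP1, and 1 to 2 among apoptosome genes in THP1. The log2 fold change of BAX in THP1 ranged from -0.060 (without the second shCtrl library) to 0.16, and that of BCL2L1 in THP1 from -0.18 to 0.075 (without the first shPRMT9 library). These turned direction, and neither was called with all libraries. An arm with 1 library was assumed to vary like the other. With DESeq2, BCL2L1, BAX and BAK1 in Molm13 (adjusted p = 0.083, 0.061 and 0.095) and PMAIP1 and BID in THP1 (0.13 and 0.072) were no longer called. BCL2A1 in THP1 was given no adjusted p by DESeq2. In the edgeR fit without the filter, BCL2A1 (adjusted p = 0.052) and PMAIP1 (0.061) in THP1 were not called. BBC3 in THP1 passed in the common fit (0.044).

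Replicate numbers are shared across groups, but nothing says that they pair libraries, and same-numbered libraries did not deviate together (correlation -0.033 in Molm13 and -0.00017 in THP1 over 13468 genes). With the replicate number as a block, 3 members in Molm13 and 1 in THP1 were DEGs, 7 differed in response and 6 between the control lines, as without it. With 2 libraries per group, low counts limit BCL2A1 and BBC3 in THP1.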
